A study of Gallus gallus with 22 samples.

Results

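*SPTSSB* (ENSGALG00010001138) and *VNN2* (ENSGALG00010004300) are 2 of the 17007 genes counted in the pancreas and the jejunum of broilers on a control diet or on one with 2% SB. They were chosen because the diet difference, control minus SB, was positive in the jejunum and negative in the pancreas. The diet differences in each tissue and the interaction of diet and tissue are therefore descriptions of how both genes were selected, and no test is attached to them. In the pancreas, the mean was higher in SB-fed than in control broilers, at 4.95 against 0.980 CPM for *SPTSSB* and 6.01 against 2.06 CPM for *VNN2*. Libraries outside the range of the other diet are named below as part of the levels. Such patterns belong to the contrasts that chose the genes, and their share among all genes was not counted. In the jejunum, both genes had a lower mean in SB-fed broilers. The ranges of the diets overlapped for both genes in both tissues. *SPTSSB* in the pancreas of SB-fed broilers ran from 0.498 to 13.3 CPM, with a median of 3.67 CPM.

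The birds were males of Ross 308, a commercial meat strain of broiler, kept in floor pens and sampled on d 24. SB is sugarcane bagasse, the fibrous residue of sugar extraction, which was added on top of the complete feed, and control broilers received the feed without it. One broiler per pen gave a piece of proximal jejunum and a piece of pancreas, and the authors removed outlier samples before the analysis. The paper describes these as samples far from their own diet group. Spreads within a diet are therefore those of the samples that were kept, and such a rule can narrow them. The jejunum gave 5 control and 6 SB libraries and the pancreas gave 6 control and 5 SB libraries, 22 in all.

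Serine palmitoyltransferase joins serine to a fatty acyl coenzyme A in the first step of sphingolipid synthesis, the pathway that leads to ceramide and sphingomyelin. In mammals, *SPTSSB* encodes a small subunit that raises the activity of this enzyme and favours longer acyl chains. *VNN2* belongs to the vanins, pantetheinases that split pantetheine, a breakdown product of coenzyme A, into the vitamin pantothenate and cysteamine. In mammals, vanins are largely anchored at the cell surface, and the family is known from gut epithelium and leukocytes. On the GRCg7b assembly, the RefSeq annotation places *SPTSSB* on chromosome 9 from 21660614 to 21669326 and *VNN2* on chromosome 3 from 56479597 to 56489691. That table holds 1 vanin gene, and gives *VNN1* and *VNN3* as other names of it. Whole genes were counted, so no isoform can be named.

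Total counts per library ranged from 42540952 to 203039911 in the jejunum and from 65957320 to 300479804 in the pancreas, with medians in the pancreas of 74145354 in control and 186019684 in SB-fed broilers. The 10 genes with the largest share of pancreas counts took 50.1% to 60.2% of a pancreas library and at most 0.00347% of a jejunum library. The 100 genes most abundant in the jejunum, among those with a median in the pancreas under a hundredth of the jejunal mean, summed to between 30082 and 69112 CPM in the jejunum and between 63.8 and 2271 CPM in the pancreas. These genes were picked from the same libraries, so their levels describe how far the tissues were apart. Identifiers of cell type markers could not be matched to symbols, and the labelled tissues were not checked against named markers.

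Expression is given in CPM, counts scaled to a common library size with the trimmed mean of M-values (TMM) taken over all 22 libraries, and log2 levels have a prior count of 2. In bulk tissue, fewer cells of a type and less RNA per cell cannot be told apart. *SPTSSB* in the jejunum of control broilers measured 3.83, 6.27, 4.89, 2.75 and 3.45 CPM in replicates 1 to 5, a mean of 4.24 ± 1.38 CPM (SD, n = 5). In the jejunum of SB-fed broilers, *SPTSSB* measured 2.87, 3.75, 3.42, 3.64, 3.60 and 1.85 CPM in replicates 1 to 6, a mean of 3.19 ± 0.723 CPM (SD, n = 6). All 6 SB libraries were below the control median of 3.83 CPM, but only replicate 6 was below the lowest control library. Replicates 1, 2 and 3 of the control group were the ones above every SB library.

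*VNN2* in the jejunum of control broilers measured 8.78, 9.74, 7.01, 9.19 and 7.74 CPM in replicates 1 to 5, a mean of 8.49 ± 1.10 CPM (SD, n = 5). In the jejunum of SB-fed broilers, it measured 5.68, 6.42, 9.26, 5.56, 6.59 and 8.57 CPM in replicates 1 to 6, a mean of 7.01 ± 1.54 CPM (SD, n = 6). Replicates 1, 2, 4 and 5 of the SB group lay below every control library, whereas replicates 3 and 6 lay among the controls. SB replicate 1 was next to lowest of its group in both genes, whereas replicate 6 had the lowest *SPTSSB* level and the next to highest *VNN2* level.

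The pancreas of control broilers held little of either transcript. *SPTSSB* measured 0.793, 1.35, 1.01, 1.03, 0.682 and 1.01 CPM in replicates 1 to 6, a mean of 0.980 ± 0.229 CPM (SD, n = 6) that rested on 21 to 106 counts per library. In the pancreas of SB-fed broilers, *SPTSSB* measured 13.3, 3.67, 2.29, 0.498 and 4.97 CPM in replicates 1 to 5, a mean of 4.95 ± 4.97 CPM (SD, n = 5). The SB group thus held the highest and the lowest *SPTSSB* level of the tissue, with replicates 1, 2, 3 and 5 above every control library and replicate 4 below every one. Replicate 1, with 1910 counts, was also above every jejunum library on the TMM scale. By total counts alone it was not, with 1910 of 198378346 counts against 572 of 54841516 in jejunum control replicate 2.

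*VNN2* in the pancreas of control broilers measured 2.07, 2.01, 2.57, 0.707, 2.31 and 2.69 CPM in replicates 1 to 6, a mean of 2.06 ± 0.714 CPM (SD, n = 6) from 37 to 281 counts. In the pancreas of SB-fed broilers, it measured 10.6, 5.22, 3.20, 1.68 and 9.37 CPM in replicates 1 to 5, a mean of 6.01 ± 3.86 CPM (SD, n = 5). The same replicates 1, 2, 3 and 5 were above every control library, and replicate 4 lay within the control range. For both genes the SB libraries had the same order from high to low, replicates 1, 5, 2, 3 and 4.

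**Figure D1:**
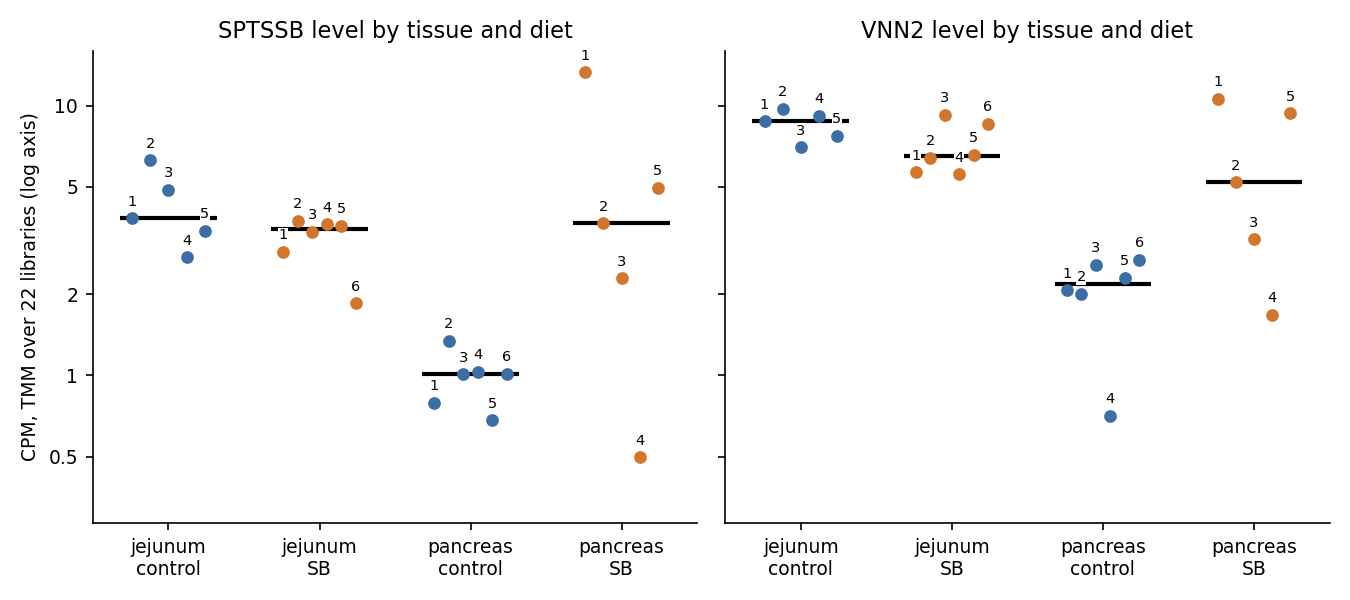
Level of *SPTSSB* (left) and *VNN2* (right) in each of 22 libraries, as TMM-scaled CPM on a log axis, by tissue and diet. Points are libraries with their replicate number, blue for control and orange for SB, and black lines are medians; the pancreas SB group spans 0.498 to 13.3 CPM for *SPTSSB* and 1.68 to 10.6 CPM for *VNN2*.

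The diet differences that chose the genes were estimated with edgeR within each tissue and are given as a log2 fold change, control minus SB, with its standard error (SE). In the jejunum, the log2 fold change was 0.42 (SE 0.23) for *SPTSSB* and 0.28 (SE 0.16) for *VNN2*. In the pancreas, it was -2.30 (SE 0.62) for *SPTSSB* and -1.51 (SE 0.46) for *VNN2*. In the jejunum, 6.45% of the 14488 genes tested had a log2 fold change at least as large in size as that of *SPTSSB*, and 12.5% one at least as large as that of *VNN2*. In the pancreas, these shares were 0.248% and 0.864% of 14116 genes.

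A differentially expressed gene (DEG), as the study defined it, changed by 1 or more on the log2 scale in either direction with an unadjusted P under 0.05. By this definition, the fits made here called 0.338% of genes in the jejunum, and neither *SPTSSB* nor *VNN2* was among them. In the pancreas, they called 1.10% of genes, and both were among them. These were 49 and 155 genes, whereas the lists of the study hold 41 and 125. The listed values were matched in a fit with the legacy and robust options of edgeR, for 41 of 41 jejunal and 123 of 125 pancreatic entries. The fits that gave 49 and 155 genes used neither option. The choice of the genes used these contrasts, so nothing is read from the DEG counts. After Benjamini-Hochberg adjustment over all genes, edgeR called 0 genes for diet in either tissue and 0 for the interaction, while 286 genes in the jejunum, 543 in the pancreas and 521 in the interaction had an unadjusted P under 0.05.

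The signs that chose the genes were common. Of 13788 genes tested in both tissues, 3221, or 23.4%, had a control minus SB difference above 0 in the jejunum and below 0 in the pancreas, and 3949 had the reverse pattern. A change of 1 or more on the log2 scale in either tissue was found for 84 of the 3221 genes, and in both tissues for 1. Genes at least as far from 0 as *SPTSSB* in both directions numbered 4 with *SPTSSB* itself, and those at least as far as *VNN2* numbered 11. The other 3 of the first count, named after their values were seen, were *CRISP2*, *GATD3AL2* and ENSGALG00010023042. *GATD3AL2* had its main expression in the jejunum, at a mean of 315 CPM in control and 219 CPM in SB-fed broilers, and was at 0.339 and 2.06 CPM in the pancreas. ENSGALG00010023042 had the other distribution, with means of 2.61 and 1.14 CPM in the jejunum and 12.8 and 78.1 CPM in the pancreas.

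The interaction, the control minus SB difference in the jejunum less that in the pancreas, was 2.74 (SE 0.66) for *SPTSSB* and 1.82 (SE 0.49) for *VNN2* on the log2 scale in one edgeR fit over the 4 groups. With the bird as a block, over the 10 birds with both tissues, it was 2.14 (SE 0.81) and 1.74 (SE 0.56). The pancreas supplied most of each interaction, since the jejunal difference was 0.42 and 0.28 against -2.30 and -1.51. Among 15032 genes, 0.645% had an interaction at least as large in size as *SPTSSB* and 1.68% one at least as large as *VNN2*.

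Single libraries moved the size of these differences and not their sign in any of the 11 fits per tissue that left out 1 library. In the jejunum, *SPTSSB* fell to a log2 fold change of 0.24 without control replicate 2, its highest control library, and rose to 0.54 without control replicate 4. *VNN2* in the jejunum ranged from 0.22 without SB replicate 4 to 0.38 without SB replicate 3. In the pancreas, *SPTSSB* ranged from -2.59 without SB replicate 4 to -1.47 without SB replicate 1. *VNN2* in the pancreas ranged from -1.75 to -1.19 without the same 2 libraries. SB replicates 1 and 4 thus pulled in opposite ways, and with both left out the pancreatic log2 fold change was -1.84 (SE 0.28) for *SPTSSB* and -1.49 (SE 0.40) for *VNN2*. The interaction without both libraries was 2.31 (SE 0.36) and 1.80 (SE 0.42). These libraries were the highest and the lowest of the SB group and were picked after the data were seen. Their removal narrows the spread by construction, so nothing is read from the smaller SE.

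**Figure D2:**
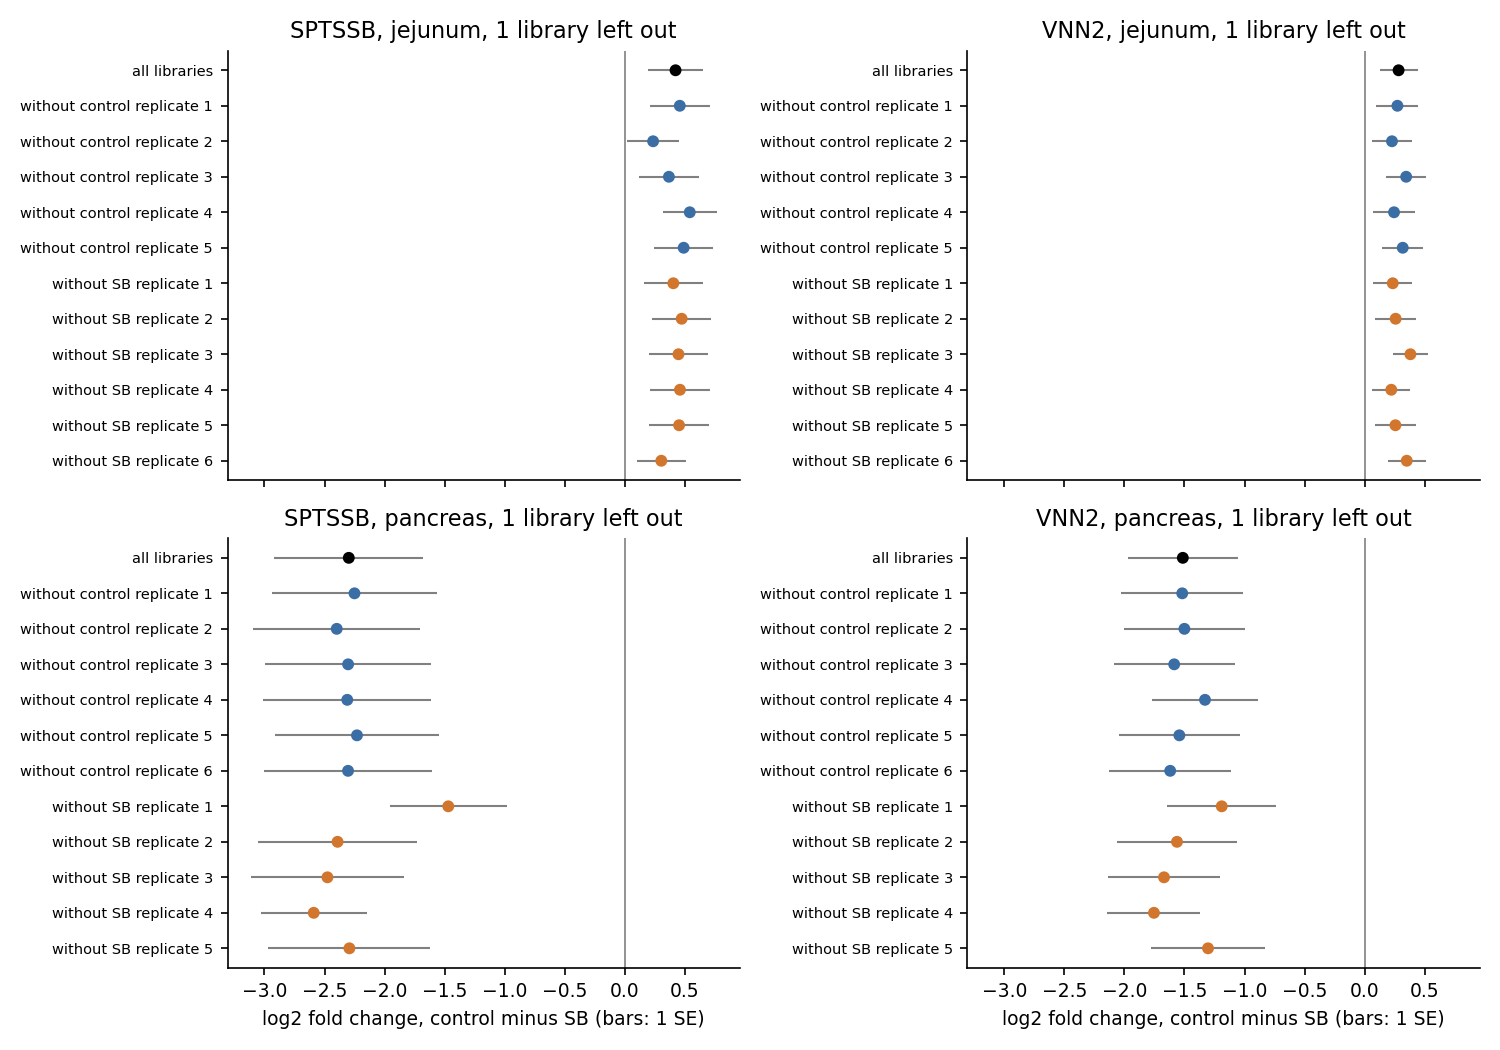
Log2 fold change, control minus SB, of *SPTSSB* and *VNN2* in each tissue with all libraries (black) and with each library left out in turn (blue, a control library; orange, an SB library), with bars of 1 SE. All 44 estimates with 1 library left out keep the sign of the full fit, and pancreas SB replicate 1 moves *SPTSSB* the most, from -2.30 to -1.47.

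The difference between the tissues, averaged over the diets, was not itself used to choose the genes, but it shares their libraries. In the pancreas, the SD in log2 CPM was 1.72 in SB and 0.33 in control libraries for *SPTSSB*, and 1.10 and 0.71 for *VNN2*. With such unequal spread, the tissue difference is not independent of the choice. Its p-values, here and within birds, are therefore not free of the choice. *VNN2* was higher in the jejunum by 1.12 (SE 0.25) on the log2 scale (edgeR, adjusted p = 0.00037 over 15032 genes). *SPTSSB* was 0.72 (SE 0.33) higher in the jejunum, which did not pass (adjusted p = 0.0538). At an adjusted P under 0.05, 40.4% of genes were higher in the jejunum and 5592 of 15032 were higher in the pancreas, so the call for *VNN2* was one it shared with many genes. With the bird as a block, the difference was 0.94 (adjusted p = 0.0539) for *SPTSSB* and 1.24 (adjusted p = 0.00186) for *VNN2*. The size of a difference between such unlike tissues depended on the scaling. By total counts alone the median gene shifted by 1.65 on the log2 scale towards the jejunum, against 0.03 with TMM, the differences were 2.23 and 2.73, and 12598 genes were called higher in the jejunum and 1101 in the pancreas. With upper-quartile scaling the median gene shifted by -0.12, and the differences were 0.56 (adjusted p = 0.127) and 0.97 (adjusted p = 0.0015). Without pancreas SB replicate 1, the *SPTSSB* difference was 1.13 (adjusted p = 0.000853).

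Groups were ordered by their median on the TMM scale. *SPTSSB* fell from jejunum control (3.83 CPM) through pancreas SB (3.67 CPM) and jejunum SB (3.51 CPM) to pancreas control (1.01 CPM). The libraries of the first 3 groups overlapped, and all 6 pancreas control libraries lay below the jejunal range of 1.85 to 6.27 CPM. Of the 5 pancreas SB libraries, 1 lay below that range, 3 within it and 1 above it. The order for *VNN2* was jejunum control (8.78 CPM), jejunum SB (6.50 CPM), pancreas SB (5.22 CPM) and pancreas control (2.19 CPM). Each neighbouring pair of these groups overlapped, and all 6 pancreas control libraries again lay below the jejunal range of 5.56 to 9.74 CPM. Of the pancreas SB libraries, 3 lay below it, 1 within it and 1 above it. By total counts alone the median gene shifted by 1.65 on the log2 scale towards the jejunum, so positions between the tissues depend on the scaling. The order of the groups was not computed with other scalings.

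Both tissues were available for 10 birds, 5 of each diet, taking an equal number in the column names as the same bird. *SPTSSB* in the 5 control birds was higher in the jejunum by 1.39 to 2.30 on the log2 scale, a mean of 2.01 ± 0.38 (SD, n = 5). In the 5 SB-fed birds, the same difference ran from -2.21 in bird 3 to 2.80 in bird 34, a mean of -0.02 ± 1.95 (SD, n = 5). *VNN2* was higher in the jejunum of control birds by 1.44 to 3.66, a mean of 2.16 ± 0.89 (SD, n = 5). In SB-fed birds it ran from -0.90 in bird 3 to 1.96 in bird 34, a mean of 0.41 ± 1.07 (SD, n = 5). On the TMM scale, birds 3 and 41, both SB-fed, had more of each transcript in the pancreas than in the jejunum. The other 8 birds had less. By total counts alone, bird 3 kept this direction for *SPTSSB* (270 of 49883681 counts in the jejunum, 1910 of 198378346 in the pancreas). For *VNN2* it did not (534 and 1521 counts). Bird 41 kept it for neither *SPTSSB* (350 of 102316561 and 200 of 80467800 counts) nor *VNN2* (1619 and 377 counts).

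Bird 3 had 2.87 CPM of *SPTSSB* in the jejunum and 13.3 CPM in the pancreas. Bird 34 had 3.60 and 0.498 CPM, so that 2 birds on the same diet were at opposite ends of the series. Over the 10 birds, *VNN2* was higher in the jejunum by 1.28 ± 1.31 (SD) in log2 CPM, in 8 of 10 birds (exact two-sided sign-flip permutation test, p = 0.0156, adjusted over both genes p = 0.0313). *SPTSSB* was higher by 0.99 ± 1.70 (SD), also in 8 of 10 birds, which did not pass (exact p = 0.0938, adjusted p = 0.0938). The smallest p this test can give is 0.00195. Both results are on the TMM scale, and the sign-flip test was not run with other scalings.

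**Figure D3:**
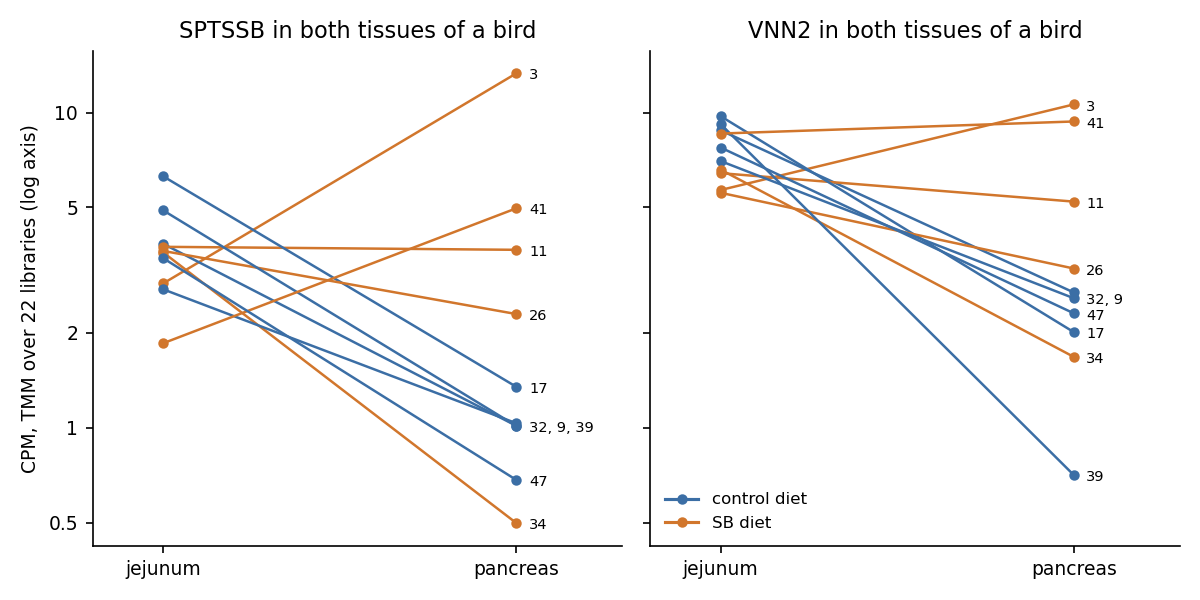
CPM of *SPTSSB* (left) and *VNN2* (right) on a log axis in the jejunum and pancreas of the 10 birds with both tissues; each line is a bird, with its number at the pancreas value, blue for control and orange for SB. With TMM scaling, all 5 control birds fall from jejunum to pancreas. SB-fed birds 3 and 41 rise for both genes, and bird 34 falls to 0.498 CPM of *SPTSSB*.

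Both genes varied more between libraries of a diet in the pancreas than in the jejunum. With each diet mean removed, the SD in log2 CPM of *SPTSSB* was 0.42 in the jejunum and 1.17 in the pancreas, and that of *VNN2* was 0.26 and 0.90. The median gene had an SD of 0.23 in the jejunum and 0.26 in the pancreas. At least as variable as *SPTSSB* were 17.9% of 12536 jejunal genes and 4.10% of 12551 pancreatic genes, and for *VNN2* these shares were 41.4% and 8.32%. Most of the spread in the pancreas came from the SB group, with an SD in log2 CPM of 1.72 for *SPTSSB* and 1.10 for *VNN2*, against 0.33 and 0.71 in the controls.

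Covariation was computed on log2 CPM with the diet mean removed and tested by exact permutation of libraries within diets. Removing the mean takes out the mean diet difference that chose the genes. It leaves the spread of single libraries, such as pancreas SB replicates 1 and 4, which moved the size of that difference. P-values of diet-centred relations, here and below, are therefore not free of the choice. In the pancreas, *SPTSSB* and *VNN2* had a Pearson r of 0.74 over 11 libraries (exact two-sided p = 0.0263, adjusted over 4 relations p = 0.105) and a Spearman rho of 0.52 (exact p = 0.190, adjusted p = 0.761). Without SB replicates 4 and 1, the 2 libraries farthest from the median of *SPTSSB*, r was 0.31 (exact p = 0.449), so the relation rested on those libraries. Leaving out single libraries, r ranged from 0.49 without SB replicate 4 to 0.92 without control replicate 4, which was low in *VNN2* and ordinary in *SPTSSB*. Of these 11 values, 6 kept an exact p under 0.05, and each of the 5 without an SB library did not. Without SB replicate 2, 3 or 5, r itself hardly moved, at 0.74, 0.73 and 0.73. It was 0.65 without SB replicate 1.

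In the jejunum, r was -0.24 over 11 libraries (exact p = 0.493, adjusted p = 0.715) and rho was -0.21 (exact p = 0.550, adjusted p = 0.953). Without SB replicate 6 and control replicate 4, it was 0.25 (exact p = 0.481). Between the tissues of a bird, *SPTSSB* had r = -0.22 over 10 birds (exact p = 0.536, adjusted p = 0.715) and rho = -0.04 (exact p = 0.923, adjusted p = 0.953). *VNN2* had r = -0.01 (exact p = 0.982, adjusted p = 0.982) and rho = -0.03 (exact p = 0.953, adjusted p = 0.953). Without the 2 birds farthest from the jejunal median, these r were -0.12 (exact p = 0.675) and -0.43 (exact p = 0.313). No relation between the tissues of a bird was detectable at this number of birds.

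**Figure D4:**
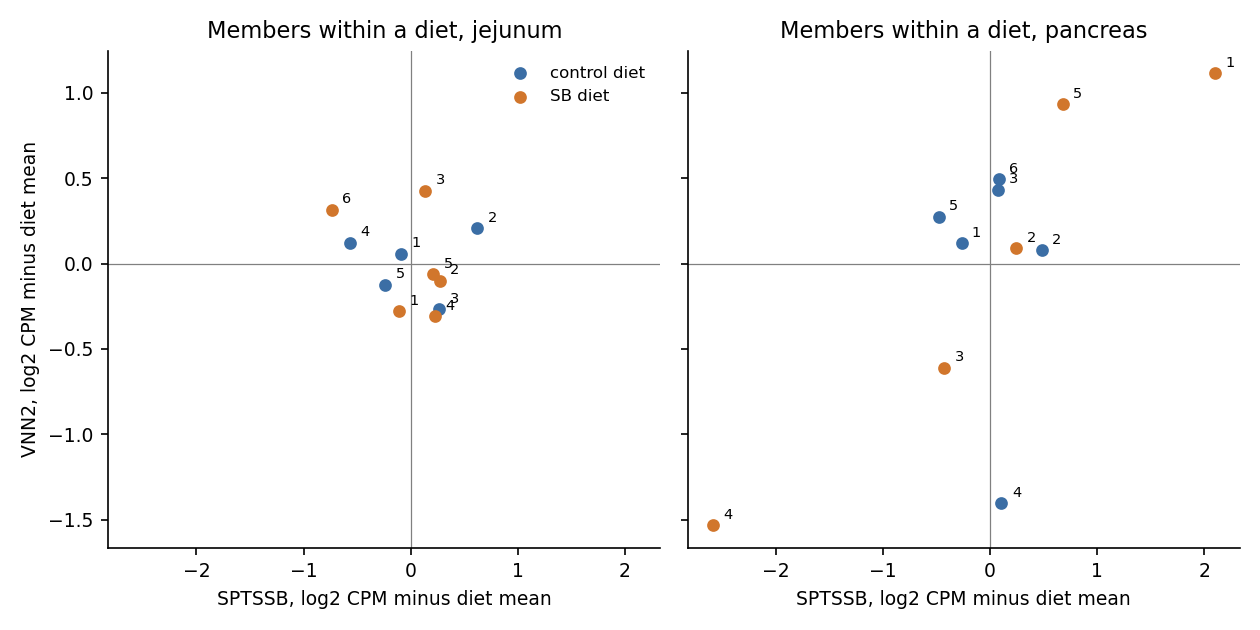
*VNN2* against *SPTSSB* in the 11 libraries of the jejunum (left) and of the pancreas (right), each as log2 CPM minus the mean of its diet; points are libraries with their replicate number, blue for control and orange for SB. In the pancreas, SB replicates 1 and 4 are the ends of the cloud, with r = 0.74 with them and 0.31 without them, and in the jejunum r is -0.24.

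The genes most like each member were found by the same diet-centred correlation among genes of at least 1 CPM on average, and they are a description: all points come from the same libraries, so depth and library make-up are shared, and no p is given. In the pancreas, 12550 genes were ranked. The 5 most like *SPTSSB* were ENSGALG00010013468 (r = 0.93), ENSGALG00010025994 (0.92), ENSGALG00010000724 (0.90), *SLC28A3* (0.90), a nucleoside transporter, and *EHF* (0.90), an epithelial transcription factor. The 5 most like *VNN2* were *DUOXA1L* (r = 0.91), named as a dual oxidase maturation factor, *DUOX2* (0.91), a dual oxidase that releases hydrogen peroxide at epithelial surfaces, and ENSGALG00010023042 (0.89), ENSGALG00010005302 (0.89) and ENSGALG00010022567 (0.88).

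A symbol could be linked only to genes on the DEG lists of the study, so a most alike gene named by symbol was a diet DEG there by construction, and its diet difference is no finding. *DUOX2* in the pancreas measured 4.12, 2.28, 6.97, 0.994, 2.66 and 2.82 CPM in control replicates 1 to 6 and 53.6, 31.0, 11.2, 2.23 and 31.4 CPM in SB replicates 1 to 5. *DUOXA1L* measured 1.38, 0.456, 3.79, 0.134, 0.650 and 1.14 CPM in controls and 22.7, 12.3, 4.22, 0.703 and 17.4 CPM in SB-fed broilers. In both, SB replicates 1, 2, 3 and 5 were above every control library and replicate 4 was not, as for *VNN2*, and control replicate 4 was the lowest control. *EHF* measured 2.10, 3.52, 2.21, 2.28, 1.40 and 3.89 CPM in controls and 15.2, 5.17, 2.77, 1.97 and 5.94 CPM in SB-fed broilers. *SLC28A3* measured 0.511, 0.787, 1.01, 0.402, 0.227 and 0.430 CPM in controls and 6.63, 2.06, 0.871, 0.444 and 3.83 CPM in SB-fed broilers. For *EHF* and *SLC28A3*, SB replicates 1, 2 and 5 were above every control library. *DUOX2* had a log2 fold change of -2.95 (SE 0.67) in the pancreas and -0.32 (SE 0.43) in the jejunum, where SB was on the higher side as well. *EHF* had -1.23 (SE 0.47) in the pancreas and 0.11 (SE 0.17) in the jejunum.

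Not every gene most like a member moved with diet. ENSGALG00010013468, the closest to *SPTSSB*, had a pancreatic log2 fold change of 0.02 (SE 0.32), and ENSGALG00010025994 had 0.08 (SE 0.07). ENSGALG00010005302 had -0.09 (SE 0.07) and ENSGALG00010022567 had 0.14 (SE 0.11). The lists of the 100 most alike genes of *SPTSSB* and of *VNN2* shared 19 genes in the pancreas, 19% of each, and 0 in the jejunum. *VNN2* ranked 103 among the genes most like *SPTSSB*, and *SPTSSB* ranked 64 among those most like *VNN2*. In the jejunum, these ranks were 8648 and 9760 of 12535.

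The order of the SB libraries in the pancreas, replicates 1, 5, 2, 3 and 4 from high to low, was held by 120 other genes for each member, 0.956% of those of at least 1 CPM. In the jejunum control group, also of 5 libraries, the orders of *SPTSSB* and *VNN2* were held by 1.12% and 1.46% of genes. The share in the pancreas was thus not a high one. For each member, 13 of the 120 pancreatic genes were DEGs with higher expression in SB-fed broilers. Beside the other member, those with a linked symbol were *ABCB5*, *ADAM28*, *CRISP2*, *DUOX2*, *DUOXA1L*, *EHF*, *GALR1*, *LAPTM4B*, *MMP7* and *SLC28A3*, named after their values were seen. They include *MMP7*, a matrix metalloproteinase of epithelia, *ADAM28*, a membrane protease, and *GALR1*, a galanin receptor. Among all 14116 genes tested in the pancreas, 93 were DEGs with higher expression in SB-fed broilers, without the limit of 1 CPM used for the order. The DEGs were called with the same libraries that gave the order, so nothing is read from the count of 13. No such common order was seen in the other groups, where *SPTSSB* and *VNN2* ordered the libraries differently.

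**Figure D5:**
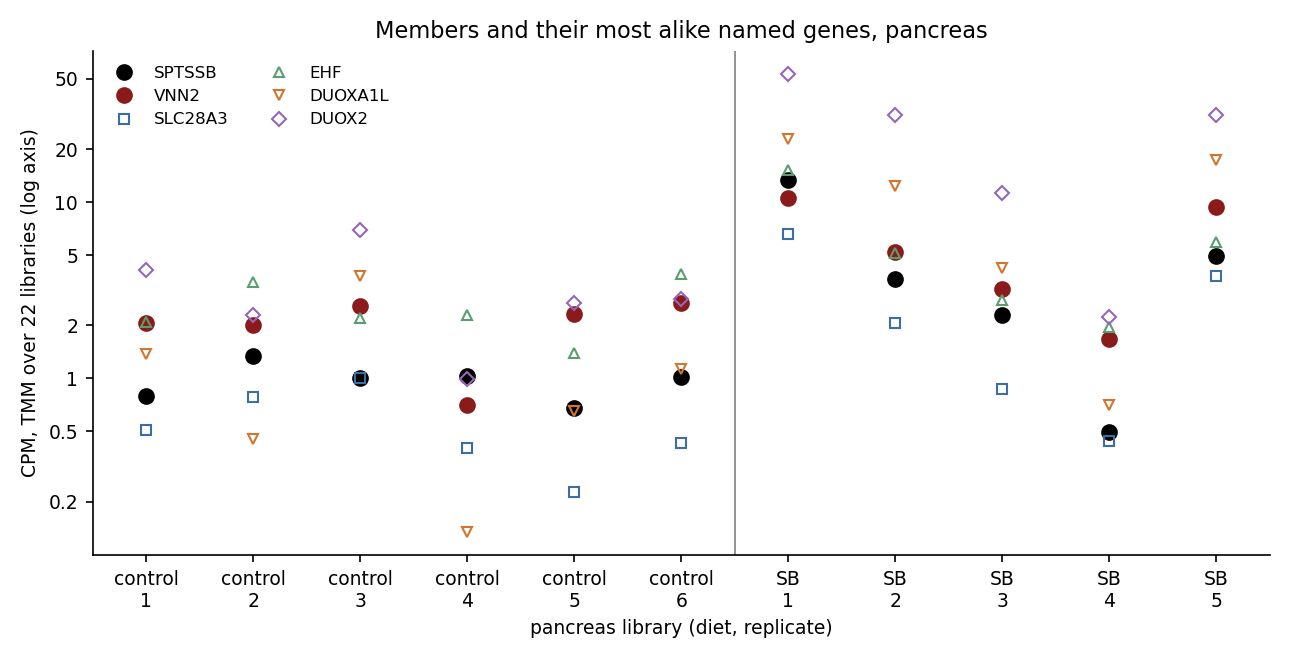
CPM of *SPTSSB*, *VNN2* and the 4 genes with a linked symbol among those most like them in the pancreas, on a log axis, in 6 control and 5 SB libraries; symbols were linked only for DEGs of the study. All 6 genes are highest in SB replicate 1 and lowest within the SB group in replicate 4, where *SPTSSB* is at 0.498 CPM and *DUOX2* at 2.23 CPM.

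In the jejunum, the 5 genes most like *SPTSSB* had r from 0.92 to 0.94, and the first, ENSGALG00010029937, measured 76.6, 104, 77.4, 26.4 and 47.2 CPM in control and 60.4, 87.9, 65.4, 102, 69.5 and 22.9 CPM in SB libraries. Its lowest library in each diet was the one lowest in *SPTSSB*, control replicate 4 and SB replicate 6. The 5 most like *VNN2* had r from 0.82 to 0.89, led by ENSGALG00010016950, and none of these 10 identifiers was linked to a symbol. Over the within-bird difference between the tissues, *BMX*, a non-receptor tyrosine kinase, was among the 5 genes most like *SPTSSB* (r = 0.95 over 10 birds), and the 5 most like *VNN2* had r from 0.89 to 0.94 and no linked symbol.

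Depth and library make-up were set beside the levels of both genes in 12 diet-centred relations, of which none passed after adjustment (lowest adjusted p = 0.441, exact permutation). The largest was that of *SPTSSB* in the jejunum with the summed level of the 100 jejunum-abundant genes (r = 0.66, exact p = 0.0402; rho = 0.47, exact p = 0.158; r = 0.67 without the 2 farthest libraries). That sum was 30082 CPM in control replicate 4, 33190 CPM in SB replicate 1 and 41655 CPM in SB replicate 6, and 61418 CPM or more in the other 8 jejunum libraries. Control replicate 4 was the lowest control library in *SPTSSB*, and SB replicates 6 and 1 were the 2 lowest of the SB group. The part of this in the jejunal difference was not tested. *VNN2* had r = -0.10 with that sum (exact p = 0.774; rho = -0.26, exact p = 0.465).

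In the pancreas, the summed jejunal genes were highest in SB replicate 4, at 2271 CPM, and in control replicate 6, at 1209 CPM, and were at most 392 CPM in the other 9 libraries. SB replicate 4 had the lowest *SPTSSB* and *VNN2* of its group, and SB replicate 1, with the highest, had a sum of 232 CPM. Over the 11 libraries, with the diet mean removed, the relation with that sum had r = -0.36 for *SPTSSB* (exact p = 0.374; rho = 0.18, exact p = 0.642), and r turned to 0.64 without the 2 farthest libraries. For *VNN2*, r was -0.22 (exact p = 0.596; rho = 0, exact p = 1), and r was 0.23 without the 2 farthest libraries. Total counts, before TMM scaling, were 198378346 in SB replicate 1 and 186019684 in SB replicate 4. The relation of log2 total counts with the level in the pancreas had r = -0.04 for *SPTSSB* (exact p = 0.932) and r = -0.04 for *VNN2* (exact p = 0.921). Removing the diet mean also removes the gap in depth between the diets, with medians of 74145354 in control and 186019684 in SB libraries. These r therefore do not address that gap. With libraries thinned to the smallest, the pancreatic log2 fold change was -2.26 for *SPTSSB* and -1.60 for *VNN2*. The part of depth or of library make-up in the diet difference was not tested.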

How the data were processed

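RNA of 22 samples was sequenced. The authors used Trimmomatic for trimming, STAR for alignment to GRCg7b and HTSeq for counting per gene, and deposited raw counts of 17007 Ensembl genes; the submitters' notes also name DRAGEN. Strand and multi-mapping settings are not given in the sources used here. Total counts exceed the read numbers of the study, so what 1 count stands for is not known. The authors also deposited log2 values, which equal edgeR's log2 CPM with TMM factors and a prior count of 2 (374154 of 374154 values within 1e-06). All results were computed from the counts.

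Members and lists were chosen with earlier results of these data known. Genes were filtered with filterByExpr (minimum count 10, total 15), scaled by TMM and tested by quasi-likelihood F in edgeR 4.0.16 (R 4.3.3; legacy = FALSE, robust = FALSE), within tissues for diet and over the 4 groups for tissue and interaction. Adjustment was by Benjamini-Hochberg over all genes. An SE is the log2 fold change over the square root of F. Correlations and sign-flip tests used scipy 1.17.1 and numpy 2.4.6 and are exact and two-sided. The fits and correlations were tested on simulated data. The simulated counts had 1 fixed spread between libraries, so they do not cover the unequal spread of the members in the pancreas.

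Named genes are both members and, for each, the 5 with the highest diet-centred correlation per tissue and within birds. Symbols were linked to identifiers only by matching values with the gene lists of the study, for 41 of 41 jejunal and 123 of 125 pancreatic entries. Lists fixed for sphingolipid synthesis, pantothenate and cell types could therefore not be used: of 17 symbols of sphingoid base synthesis and 21 of the vanin and coenzyme A list, 1 each was linked. Sequences and promoter motifs were not used here.

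Groups came from the labels. Equal numbers in the column names were taken as the same bird, since 1 broiler per pen gave both tissues. Deviations from group means correlated between the tissues of a bird with r from -0.04 to 0.23, over 0.1 in 4 of 10. Replicates come from separate pens. Within a group, no libraries were copies of each other (smallest chi-square per gene 50.2), and pairs across groups were not compared. The alternatives were DESeq2 1.42.0 size factors and Wald fit, limma-voom (3.58.1), upper-quartile scaling, no filter, thinning, the legacy robust fit, other prior counts, Spearman correlation, replicate or bird blocks and leaving out each library. Scaling by total counts only and leaving out pancreas SB libraries 1 and 4 together were added after seeing the data. Counting intervals are not given, since the spread between birds is larger.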

Additional observations from a re-analysis of the deposited data

Results flagged for a closer look

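*VNN2* in the pancreas of control replicate 4 was far from the other control libraries, at 0.707 CPM (37 counts) against 2.01 to 2.69 CPM in the other 5. Its gap to the nearest library was 0.659 of the range of the group, over the critical value of 0.625 for 6 libraries. Chance flags about 1 in 20 groups, and both genes were examined in 4 groups each and over birds of each diet. *SPTSSB* in the same library was at 1.03 CPM, within the other controls. Without it, the log2 fold change of *VNN2* in the pancreas was -1.33 (SE 0.44), and r between both genes in the pancreas was 0.92. The *SPTSSB* level of 13.3 CPM in pancreas SB replicate 1 was not past the critical value, with a gap of 0.651 of the range against 0.710 for 5 libraries.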

How the results depend on the processing

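The diet differences and the interactions of *SPTSSB* and *VNN2* kept their sign and moved by less than the spread between libraries under every alternative run. In the jejunum, that spread was an SD of 0.419 for *SPTSSB* and 0.261 for *VNN2*, against differences of 0.423 and 0.283. A jejunal difference could therefore fall almost to nothing and still meet this criterion. In the pancreas, limma-voom gave -1.77 (SE 0.99) for *SPTSSB*, against -2.30 (SE 0.62) in the main fit. For *VNN2*, it gave -1.33 (SE 0.62) against -1.51 (SE 0.46). The interactions with limma-voom were 2.20 (SE 0.90) and 1.63 (SE 0.56). Leaving out 1 library at a time, the interaction ranged from 1.93 to 3.03 for *SPTSSB* and from 1.50 to 2.06 for *VNN2*. The replicate numbers did not pair the libraries (r of deviations from -0.43 to 0.21 over 5 pairs in the jejunum and from -0.53 to 0.24 in the pancreas), and with the replicate block the diet difference of *SPTSSB* was 0.25 in the jejunum and -1.70 in the pancreas, and that of *VNN2* 0.37 and -1.45. The block gave 43 DEGs in the jejunum and 122 in the pancreas.

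The tissue difference of *VNN2* passed under every alternative run, and from 1.00 to 1.28 with 1 library left out. That of *SPTSSB* was 0.57 to 1.13 with 1 library left out, passing in 4 of 22 such fits, and passed with the DESeq2 Wald fit (0.70, adjusted p = 0.0418) and with total counts only (2.23, adjusted p = 1.34e-05). The pancreatic correlation was 0.52 by Spearman (exact p = 0.190). It was 0.49 to 0.92 with 1 library left out. The jejunal correlation was -0.51 to 0.0596 with 1 library left out, the only positive value being that without SB replicate 6. The correlation of *VNN2* between the tissues was 0.0305 with DESeq2 size factors. With 1 bird left out it was -0.45 to 0.18, and it was positive without bird 3 (0.176), 32 (0.0918), 34 (0.0212), 39 (0.144) or 47 (0.0178). Without a filter on low counts, the jejunum had 148 DEGs against 49 and the pancreas 333 against 155. With 1 library left out, these counts were 44 to 83 (83 without SB replicate 1) and 144 to 236 (236 without SB replicate 1). The cause of these changes was not tested. The bird block changed no call of either gene, and, with the birds that had both tissues, opposed signs were found for 3495 genes. *SPTSSB* in the control pancreas rested on as few as 21 counts per library.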
